A study of Mus musculus with 8 samples.

Results

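Convergent T cell receptors are those in which 1 amino-acid sequence is spelled by more than 1 DNA sequence. Among T cells from the brains of 5xFAD mice with and without Cxcr6, 237 of 5810 cells (4.08%) carried a beta chain whose CDR3, the loop that touches the antigen most, had the same amino acids as at least 1 other cell but different nucleotides. These cells held 70 CDR3 amino-acid sequences, out of 3575 in the data (1.96%), and these 70 were written in 147 nucleotide forms. The cells were found by pooling 4 receptor libraries, keeping barcodes with exactly 1 productive TRB contig and no iNKT-like alpha chain (TRAV11 or TRAV11D joined to TRAJ18), which left 5810 of 6686 barcodes (86.9%), and counting the nucleotide forms of each TRB CDR3 over those cells. The other 3505 CDR3s had 1 form, and 2981 of them were seen in 1 cell. Of the 70, 64 sat just inside the threshold with 2 forms, 5 had 3 forms and 1 had 4, and just outside it were 524 CDR3s of 1 form seen in 2 or more cells. The cells were thus selected on their number of nucleotide forms, which is given as a description.

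A beta chain gene is made in the thymus by joining a V, a D and a J segment, with bases trimmed from the ends and others added without a template. Each joining event leaves its own nucleotide sequence, so cells descended from 1 ancestor share it base for base. Separate events can still reach the same protein, because most amino acids have several codons and because many V segments end in the same residues. Such convergent recombination is known to give rise to receptors that recur between individuals.

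The source was CD45+ immune cells sorted from brain parenchyma, on a C57BL/6 background, read with a 10x immune profiling kit. Receptors were read in 2 libraries per genotype, 5xFAD and 5xFAD;Cxcr6-/-. All carry the 5xFAD transgenes, which are mutant human amyloid precursor protein and presenilin driven by the Thy1 promoter in neurons, and the second genotype also lacks Cxcr6, a chemokine receptor of tissue-resident T cells. The labels give no age and do not say whether a library is 1 mouse or a pool, so the tests measure the spread between these libraries.

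The 5xFAD libraries 1 and 2 gave 1727 and 2192 eligible cells, the 5xFAD;Cxcr6-/- libraries 661 and 1230, and each held between 13460 and 34772 receptor UMIs. Gene expression was not analysed here, so a T cell is known only by its receptor, CD4 and CD8 cells were not told apart, and the genotype labels were not checked. Across library pairs, 28 barcodes were shared, of which 3 involved a convergent cell, and 0 carried the same CDR3 nucleotides in both libraries. Of 3652 nucleotide forms, 8 were found in 2 or more libraries, 1 of them convergent, and 0 of the 8 shared an alpha chain.

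The CDR3 with 4 forms and 3 of the 5 with 3 forms, taken by cell number and then alphabetically, show how the DNA differs while the protein does not. The others with 3 forms are a CDR3 whose forms are all on TRBV16, shown further on, and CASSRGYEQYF. V names are given as called, and that of TRBV10 is uncertain, as described with the processing. In each set the bases that differ between forms are in capitals, from the codon of the conserved cysteine to that of the closing phenylalanine, 5′ to 3′. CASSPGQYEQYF had 4 forms built on 4 different V segments and the same J, TRBJ2-7:

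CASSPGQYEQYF form 1, TRBV14: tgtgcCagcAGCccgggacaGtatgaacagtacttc
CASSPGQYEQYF form 2, TRBV12-2: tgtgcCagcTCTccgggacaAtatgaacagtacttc
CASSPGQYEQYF form 3, TRBV12-1: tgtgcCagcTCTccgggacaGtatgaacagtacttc
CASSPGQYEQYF form 4, TRBV29: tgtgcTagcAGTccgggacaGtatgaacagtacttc

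Its 6 cells were 3 in 5xFAD library 1 and 3 in 5xFAD;Cxcr6-/- library 2, and the 3 forms with an alpha chain carried different alpha segments (TRAV7N-6, TRAV5-1 with TRAV9-2, and TRAV12D-3 with TRAV4D-3). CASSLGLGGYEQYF had 3 forms on TRBV16, TRBV10 and TRBV12-1, in 3 cells of 5xFAD library 2 and 1 cell of 5xFAD;Cxcr6-/- library 1:

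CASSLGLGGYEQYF form 1, TRBV16: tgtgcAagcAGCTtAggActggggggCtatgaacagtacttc
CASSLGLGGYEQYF form 2, TRBV10: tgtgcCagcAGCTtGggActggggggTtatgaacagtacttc
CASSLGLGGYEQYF form 3, TRBV12-1: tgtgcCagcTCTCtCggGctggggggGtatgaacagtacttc

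The forms of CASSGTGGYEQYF lay 1 in 5xFAD library 1 and 2 in 5xFAD library 2. Its second form was paired with TRAV1 joined to TRAJ33, the invariant pairing of MAIT cells, which read microbial vitamin B metabolites. This was the 1 MAIT-like cell among the members of that library, and the other 3 libraries held 0 among theirs:

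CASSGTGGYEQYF form 1, TRBV13-1: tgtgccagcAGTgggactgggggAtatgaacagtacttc
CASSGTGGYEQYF form 2, TRBV13-3: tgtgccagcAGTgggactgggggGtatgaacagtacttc
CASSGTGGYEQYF form 3, TRBV10: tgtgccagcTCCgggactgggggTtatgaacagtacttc

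All 3 forms of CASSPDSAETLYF came from 5xFAD;Cxcr6-/- library 2, 1 cell each, and differed only in the codon of the fourth residue, a serine, counted from the cysteine:

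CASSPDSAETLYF form 1, TRBV3: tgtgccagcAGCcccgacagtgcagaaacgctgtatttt
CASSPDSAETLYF form 2, TRBV19: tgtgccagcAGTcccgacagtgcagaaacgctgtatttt
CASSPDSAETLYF form 3, TRBV12-1: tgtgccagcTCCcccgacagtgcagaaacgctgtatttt

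The serine codon is where these V segments part. The germline CDR3 parts of TRBV3, TRBV19 and TRBV12-1 (GENCODE vM21) read as follows:

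TRBV3 germline: tgtgccagcagcttagc
TRBV19 germline: tgtgccagcagtatag
TRBV12-1 germline: tgtgccagctctctc

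The convergent CDR3s with the most cells were mostly 1 large form beside a small one. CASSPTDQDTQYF had 25 cells, of which 24 were 1 form in 5xFAD;Cxcr6-/- library 2, paired in 22 cells with TRAV12D-3 and TRAJ24, and 1 was a TRBV16 form in 5xFAD library 1. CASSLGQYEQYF had 9 cells, 8 of 1 form in 5xFAD library 2 and 1 of the other in 5xFAD;Cxcr6-/- library 2. The forms of these pairs used different V segments, so differences began inside the V part:

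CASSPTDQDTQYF form 1, TRBV16, 1 cell: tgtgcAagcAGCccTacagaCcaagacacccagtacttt
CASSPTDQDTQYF form 2, TRBV12-2, 24 cells: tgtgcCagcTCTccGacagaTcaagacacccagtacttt
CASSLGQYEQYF form 1, TRBV16, 1 cell: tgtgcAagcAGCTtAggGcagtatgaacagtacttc
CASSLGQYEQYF form 2, TRBV12-2, 8 cells: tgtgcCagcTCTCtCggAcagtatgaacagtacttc

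A pair of 15-residue CDR3s on TRBV3 and TRBJ1-3, both ending GRRSGNTLYF, differed from each other by 1 residue (leucine or proline at the fifth position from the cysteine) and were each convergent. The leucine CDR3 had 12 cells in 5xFAD library 1 and 1 in 5xFAD;Cxcr6-/- library 1. The proline CDR3 had 5 cells in 5xFAD library 1, 3 in 5xFAD;Cxcr6-/- library 1 and 1 in 5xFAD;Cxcr6-/- library 2, and was 1 of 2 convergent CDR3s found in 3 libraries. The other was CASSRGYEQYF, with 3 forms and 1 cell in each of 5xFAD library 2 and the 5xFAD;Cxcr6-/- libraries.

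Leucine CDR3 form 1, 12 cells: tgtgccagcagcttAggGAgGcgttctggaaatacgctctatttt
Leucine CDR3 form 2, 1 cell: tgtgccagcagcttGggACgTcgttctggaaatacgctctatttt
Proline CDR3 form 1, 6 cells: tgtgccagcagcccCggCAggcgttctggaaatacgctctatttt
Proline CDR3 form 2, 3 cells: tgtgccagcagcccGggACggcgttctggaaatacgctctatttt

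Both belonged to a family of 9 nucleotide forms on TRBV3 and TRBJ1-3 that spread over all 4 libraries. It was picked out after its values were seen, because each of the pair had 5 neighbours, the most of any convergent CDR3, a neighbour being another CDR3 with the same V and J and 1 different residue. The other 5 forms of the family held 1, 1, 1, 6 and 1 cells, and the form of 6 cells was in 5xFAD library 2 with TRAV14D-1 and TRAJ32 in all 6. The alpha chains of the family were not shared between its forms, and the 6-cell proline form itself carried TRAV12-3 with TRAJ32 in 5xFAD library 1 and TRAV9-4 with TRAJ43 in 5xFAD;Cxcr6-/- library 2. TRAJ32 occurred in 3 of the family's forms, on 3 different TRAV segments.

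The 147 forms gave 85 pairs of forms of the same CDR3. A pair differed by a median of 3 bases (range 1 to 8), and 20 pairs differed by 1 base. In every pair the J segment was the same. The V segment was the same in 27 pairs (31.8%), which differed by a median of 2 bases, and different in 58 (68.2%), which differed by a median of 3. V segments were compared by called name. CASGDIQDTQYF, with forms labelled TRBV12-2+TRBV13-2 and TRBV13-2, thus counts as different, though both labels have the same germline CDR3 part. Of 247 differing bases, 173 (70.0%) were the third base of a codon, which most often leaves the amino acid unchanged. Where forms used different V segments and could be placed on the germline, 88 of 157 differing bases lay where both forms still matched their own V, and 69 lay after that. Where forms share a segment, bases that both match to it are equal by construction, so no position is read from those pairs.

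**Figure D1:**
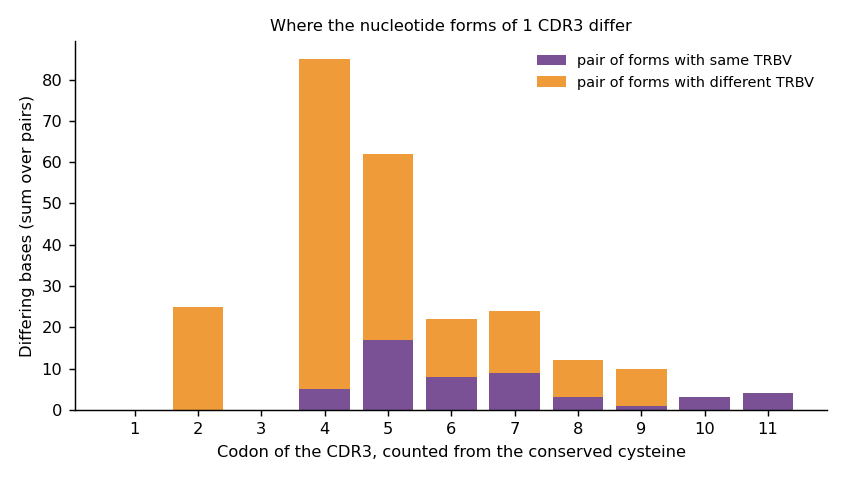
Differing bases summed over the 85 pairs of forms of 1 CDR3 (y axis) by codon counted from the conserved cysteine (x axis), split by whether the forms of a pair used the same or different TRBV. Codon 4, the serine codon shown in the sequences, held 80 differing bases in pairs with different TRBV and 5 in pairs with the same TRBV.

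The germline V segments differ from each other at codons 4 and 5, as the 3 printed show. Among those that begin CASS, TRBV16, TRBV17 and TRBV29 also differ from the others at codon 2. In pairs with different V, codons 2, 4 and 5 held 25, 80 and 45 differing bases. In pairs with the same V, codon 5 held the most, with 17. Of the 20 pairs that differed by 1 base, 9 lay in 1 library and 5 of those also shared the V. The UMI count of the weaker form in these pairs had a median of 5 and a lowest value of 2, and the part of read or PCR errors in them was not tested. Requiring 2 or more differing bases left 54 CDR3s and 198 cells, and requiring 3 or more UMIs left 64 CDR3s and 222 cells.

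The mean length of convergent CDR3s was below that of single-form CDR3s in each library. Pooled, it was 13.3 ± 1.24 residues (SD, n = 70 CDR3s, range 10 to 16) against 13.9 ± 1.45 for CDR3s of 1 form (SD, n = 3505, range 6 to 19). With each CDR3 counted once per library, the convergent and single-form means were 13.28 and 14.01 in 5xFAD library 1 and 13.29 and 13.83 in 5xFAD library 2. In the 5xFAD;Cxcr6-/- libraries they were 13.70 and 13.85, and 13.48 and 13.89. The difference averaged -0.46 residues (SD 0.246, n = 4 libraries) and was negative in 4 of 4. An exact two-sided sign-flip permutation test over the 4 libraries gave p = 0.125, the smallest value that 4 libraries allow. The 4 values are not independent: of the 70 convergent CDR3s, 44 lay in 2 libraries and 2 in 3, and each enters the mean of every library it lay in.

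**Figure D2:**
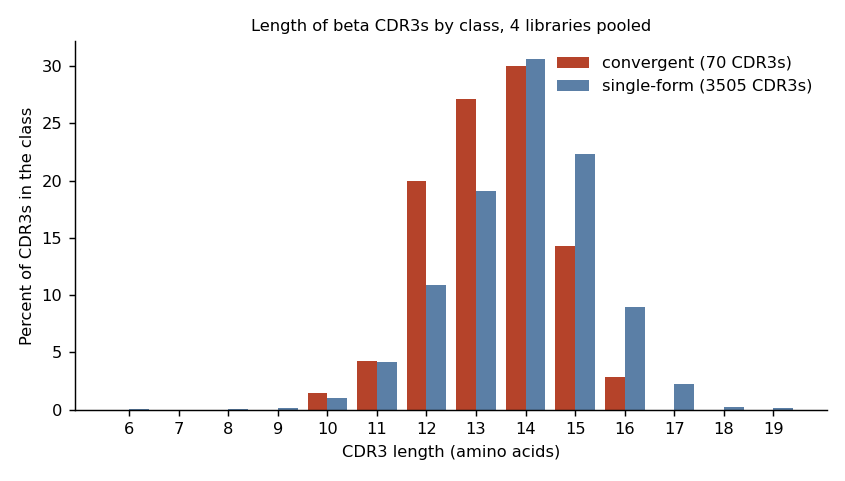
Percent of CDR3s (y axis) by length in amino acids (x axis) for the 70 convergent and the 3505 single-form beta CDR3s, 4 libraries pooled. At 12 residues lie 20% of convergent and 10.9% of single-form CDR3s, and at 15 residues 14.3% and 22.3%.

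The excess lay at 12 and 13 residues, which held 20% and 27.1% of convergent CDR3s against 10.9% and 19.1% of single-form ones. No convergent CDR3 was longer than 16 residues, a range that held 80 single-form CDR3s of 17 residues, 10 of 18 and 4 of 19.

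The part of the CDR3 that no germline V or J segment accounts for was also shorter on average in each library. It was measured as the bases left between the longest match to the called TRBV from the cysteine and the longest match to the called TRBJ. Convergent and single-form means were 8.13 and 10.10 bases in 5xFAD library 1, 7.80 and 9.84 in 5xFAD library 2, 8.97 and 9.89 in 5xFAD;Cxcr6-/- library 1, and 8.48 and 9.91 in 5xFAD;Cxcr6-/- library 2. The difference averaged -1.59 bases (SD 0.524, n = 4) and was negative in 4 of 4 libraries (exact sign-flip permutation test, p = 0.125, the smallest possible). Here too, a CDR3 found in several libraries enters the mean of each.

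**Figure D3:**
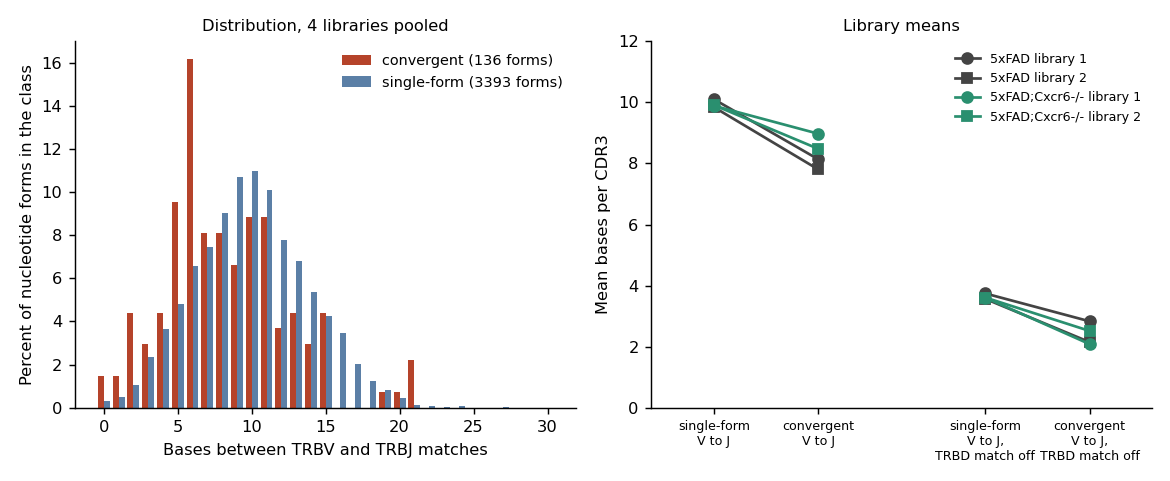
Left, percent of nucleotide forms (y axis) by the number of bases between the TRBV and TRBJ matches (x axis) for 136 convergent and 3393 single-form forms. Right, mean bases per CDR3 in each library, before and after taking off the TRBD match; each line joins the single-form and convergent means of 1 library, and all 8 lines slope down.

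Part of this goes with length. Compared within each CDR3 length, a comparison chosen after seeing the data, the differences in the 4 libraries were -0.54, -1.19, -0.50 and -0.82 bases. The germline matches differed by less: the mean difference was 0.02 bases in the V match (SD 0.393, n = 4), positive in 3 of 4 libraries, and 0.15 bases in the J match (SD 0.0900, n = 4), positive in 4 of 4 (exact sign-flip permutation test, p = 0.125, the smallest possible). When the longest run of 3 or more bases matching a TRBD segment was also taken off, 2.83, 2.14, 2.08 and 2.51 bases remained in convergent CDR3s of the 4 libraries, against 3.74, 3.56, 3.60 and 3.61 in single-form ones. Of 136 convergent forms that could be matched, 21 (15.4%) were covered in full by V, D and J germline bases, against 262 of 3393 single-form forms (7.72%). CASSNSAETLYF is near that end: its larger form has 12 bases of TRBV29, 3 unmatched bases and 21 bases of TRBJ2-3. At the other end, the 15-residue CDR3 on TRBV16 ending TGGAREQYF has 21 bases between its V and J matches, of which 12 match TRBD2, whose germline is gggactgggggggc.

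Few V or J segments separated the classes by the test. A CDR3 was counted once per library for each V segment it was seen with, and once for its J, so V shares are of CDR3 and V pairs and J shares of CDR3s. A CDR3 found in several libraries counts in each, so the library shares of convergent CDR3s are not independent. Of 150 segments tested with edgeR's quasi-likelihood test, 1 (0.667%) passed an adjusted p of 0.05, lower in convergent CDR3s (0.667% of segments), and 0 (0%) were higher. At an unadjusted p under 0.05 there were 18. DESeq2 called 0, with 10 at an unadjusted p under 0.05. On simulated data with 20 of 150 segments raised in the convergent class, the edgeR test recovered 6.75% of 2-fold and 74.5% of 4-fold increases. Most 2-fold increases would thus not be detectable at this depth. The raised segments were drawn from those with more counts than the filter requires, at a dispersion of 0.01. Recovery of decreases, and of changes in sparser segments, was not measured.

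The segment called was that labelled TRBV12-2+TRBV13-2, whose germline CDR3 part, tgtgccagcggtgatg, is that of TRBV13-2 (GRCm38, chromosome 6, 41121396 to 41121832, plus strand, a V gene). It made up 1, 0, 0 and 1 of the 34, 44, 20 and 39 convergent CDR3 and V pairs of the 4 libraries. Among single-form pairs it made up 94, 128, 51 and 84, of 942, 1183, 486 and 912. The mean share was 1.38% ± 1.60 against 10.1% ± 0.702 (SD, n = 4), with no overlap between the classes. The log2 fold change was -2.77 with an adjusted p of 0.0119 in edgeR. In DESeq2 it was -2.75 (SE 1.02) with an adjusted p of 0.582. The call was lost when any 1 library was left out, with edgeR adjusted p from 0.203 to 0.798, though the fold stayed negative. A separate label, TRBV13-2, has the same germline CDR3 part and was not called. It was 1 of 137 convergent and 72 of 3523 single-form pairs, lower in 3 libraries and higher in 1. Its log2 fold change was -1.45 (edgeR adjusted p = 0.751).

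TRBV13-2 is the germline segment here that begins CASG, while 14 of the germline segments begin CASS. Of the 70 convergent CDR3s, 64 (91.4%) began CASS and 2 (2.86%) CASG, against 2334 (66.6%) and 423 (12.1%) of 3505. When the forms of a CDR3 had to share their V and J by name, 25 convergent CDR3s remained. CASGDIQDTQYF, whose V was named in 2 ways, was not among them. The log2 fold change of TRBV12-2+TRBV13-2 was then -2.02 with an edgeR adjusted p of 0.772. The part that the shared V ends have in its lower use was not tested.

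TRBV1, which begins CTCS, was 1 of 137 convergent CDR3 and V pairs and 191 of 3523 single-form ones, with a log2 fold change of -2.84 (SE 0.954, edgeR adjusted p = 0.252). TRBV2, which begins CASS, was 0 of 137 pairs, which allows a share of up to 2.19%, against 130 of 3523, a mean of 3.53% ± 1.24 (SD, n = 4). TRBV5, TRBV13-1 and TRBV13-3 also begin CASS and were lower in 4 of 4 libraries, short of the edgeR threshold. TRBV2 had an edgeR adjusted p of 0.260. Lower shares were seen for segments with either kind of start, and what part the start has in them was not tested. The V segments that convergent CDR3s used most were TRBV3 (13.2% against 7.73%), TRBV12-2 (10.0% against 4.81%), TRBV12-1 (9.54% against 4.83%), TRBV10 (8.46% against 3.73%) and TRBV29 (7.75% against 5.39%), as means over libraries. Of these, TRBV3, TRBV12-1, TRBV12-2 and TRBV10 had the higher share in 4 of 4 libraries and TRBV29 in 3, and 0 of them passed the adjustment, with edgeR adjusted p from 0.382 to 0.695, while TRBV12-2 and TRBV29 turned negative with TMM scaling, which moved the median log2 fold change of all segments from -0.24 to -1.06. TRBV12-1 was the steadiest of those most used, at 8.82%, 9.09%, 10.0% and 10.3% of convergent pairs against 5.41%, 5.33%, 4.73% and 3.84%. Its convergent shares rest on only 3, 4, 2 and 4 pairs. TRBV10 is annotated as a V pseudogene and its germline did not match its reads, so that name is uncertain.

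**Figure D4:**
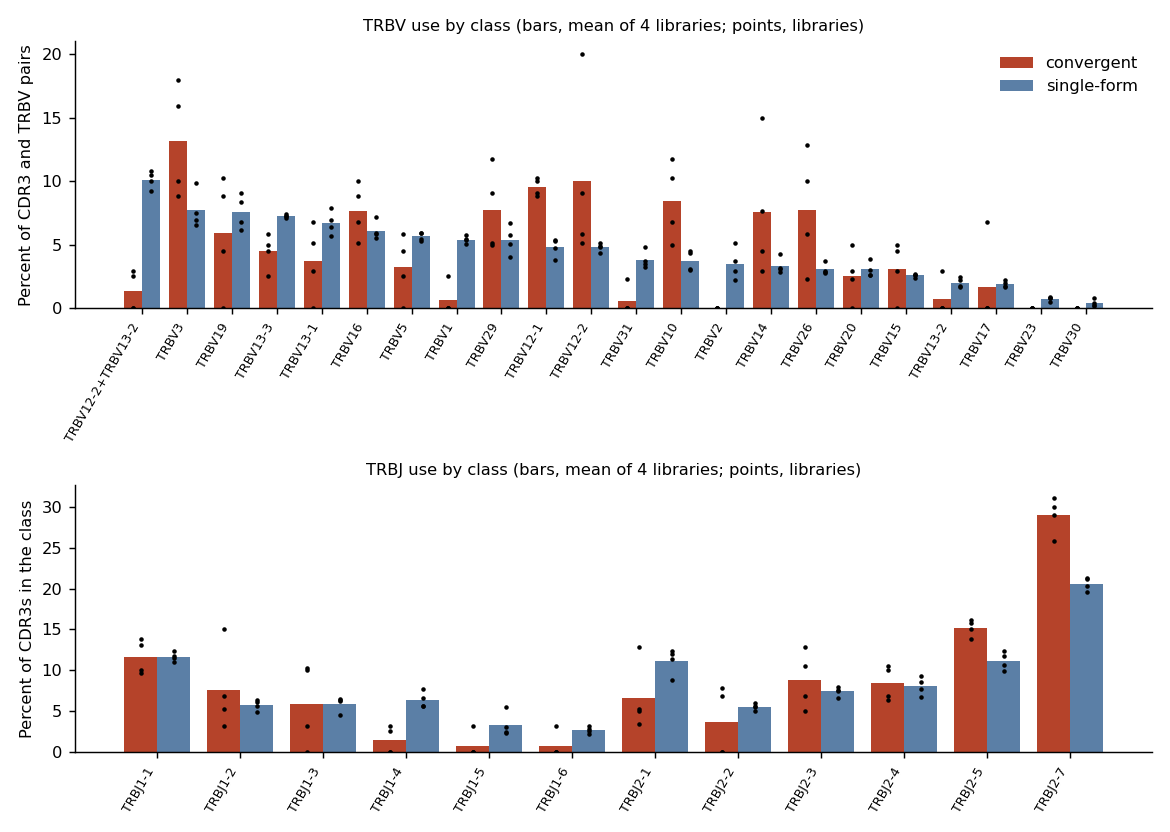
Percent of CDR3 and TRBV pairs with each TRBV (top, ordered by single-form use) and percent of CDR3s with each TRBJ (bottom) in the convergent and single-form classes; bars are means of 4 libraries and points are libraries. TRBV12-2+TRBV13-2 stands at 1.38% of convergent and 10.1% of single-form pairs, and TRBJ2-7 at 28.9% of convergent and 20.6% of single-form CDR3s.

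TRBJ2-7, whose germline ends in YEQYF, was the J of 21 of the 70 convergent CDR3s, followed by TRBJ2-5 with 11 and TRBJ1-1 with 8. Its share was 9 of 29, 11 of 38, 6 of 20 and 8 of 31 convergent CDR3s in the 4 libraries (mean 28.9% ± 2.26, SD, n = 4) against a mean of 20.6% of single-form CDR3s, and was higher in 4 of 4. The chain total counts pairs with V and so understates J use in convergent CDR3s. Relative to it, the fold was 0.27 on the log2 scale with an edgeR adjusted p of 0.751. DESeq2, with the same totals, gave 0.28 (SE 0.328). With J segments relative to their own total, added after seeing the data, the edgeR fold was 0.48 (edgeR adjusted p = 0.413). The fold turned negative with TMM scaling. TRBJ2-5 stood at 15.2% against 11.2%, also with a negative fold under TMM scaling. TRBJ1-1 stood at 11.66% against 11.67%, with a fold of -0.19 that was 0.023 relative to its own total. Both were short of the threshold. TRBJ1-4, TRBJ1-5 and TRBJ1-6 were the J of 1 convergent CDR3 each. Their mean shares were 1.46%, 0.81% and 0.81% against 6.39%, 3.40% and 2.73% of single-form CDR3s. TRBJ2-1 stood at 6.65% against 11.2%. None of these passed the adjustment with edgeR (adjusted p from 0.260 to 0.640), while TMM scaling called TRBJ1-4 and TRBJ2-1. Between the germline ends, glycine made up 27.6% of the residues of convergent CDR3s and 24.8% of those of single-form ones, and residues with 6 codons made up 25.3% and 20.8%.

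Alpha chains show whether cells with the same beta protein also share the partner chain of the receptor. An alpha chain was read in all but 39 of the 237 convergent cells (16.5% without one, against 20.8% of single-form cells), and 23 had 2 or more. By library the shares without one were 17.1% against 24.2% and 12.9% against 21.5% for 5xFAD, but 21.7% against 17.6% and 17.6% against 16.4% for 5xFAD;Cxcr6-/-. The filter on iNKT-like alphas could not act on cells without an alpha chain. Within a form, 17 of 18 convergent forms with 2 or more paired cells shared an alpha in all of them, as did 392 of 415 single-form ones. Between forms of the same CDR3 sharing was rare: of 57 pairs of forms with alpha on both sides, 8 (14.0%) shared a TRAV, 5 shared TRAV and TRAJ, 3 the alpha amino acids and 2 the alpha nucleotides. Over all pairs of forms of different CDR3s, 2.30% shared a TRAV, 0.0926% TRAV and TRAJ and 0.00340% the alpha amino acids. Pairs with the same V accounted for most of it, 6 of 17 against 2 of 40 for a shared TRAV, and 3 of the 5 pairs sharing TRAV and TRAJ lay in 1 library. These counts carry no test, since the pairs share cells and libraries.

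The segments that alphas of convergent cells used most were TRAV6-6 (8.13% of CDR3 and alpha pairs against 4.24%), TRAV3D-3 (6.74% against 3.004%) and TRAV6-7-DV9 (5.86% against 2.12%), with TRAJ23 (7.43% against 4.35%) and TRAJ26 (6.49% against 3.88%). TRAV6-7-DV9 was higher in 4 of 4 libraries, at 5.88%, 6.12%, 5.56% and 5.88% against 1.95%, 1.99%, 2.21% and 2.35%, with a log2 fold change of 1.48 (SE 0.701, edgeR adjusted p = 0.382). Its convergent shares rest on only 2, 3, 1 and 2 pairs, so their closeness is no measure of precision. TRAV7D-5 had the largest fold among those with the smallest p, 2.23 on the log2 scale, from 5 of 135 pairs of which 4 were in 5xFAD library 2. None of these passed the adjustment with edgeR, TRAJ26 turned negative with TMM scaling, and copies of TRAV segments are near-identical, so their split between names is uncertain.

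Both TRAV and TRAJ were shared in 5 pairs of forms. In 2 of these the shared alpha had identical nucleotides. They were the 15-residue CDR3 on TRBV16, whose forms also had different second alphas, and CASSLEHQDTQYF, whose forms lay in different libraries. Whether their forms came from separate joining events was not tested. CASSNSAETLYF had 22 cells, all in 5xFAD library 1, in forms of 3 and 19 cells on TRBV29 and TRBJ2-3. Both forms were paired with TRAV3D-3 and TRAJ22 and the same alpha CDR3, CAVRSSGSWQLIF, in 3 and 18 cells, and the alpha nucleotides differed too, so both chains had the same protein and different DNA:

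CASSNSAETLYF beta form 1, 3 cells: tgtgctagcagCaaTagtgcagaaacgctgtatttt
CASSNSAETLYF beta form 2, 19 cells: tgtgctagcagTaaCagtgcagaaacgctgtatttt
Alpha of form 1: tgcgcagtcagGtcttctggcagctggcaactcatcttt
Alpha of form 2: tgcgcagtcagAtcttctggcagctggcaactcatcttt

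The beta forms differ by 2 bases and the alphas by 1, and each difference holds over several cells. The beta form of 3 cells was read with a median of 13 UMIs per cell and that of 19 cells with 6. The 22 cells were the largest convergent group of that library.

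The 15-residue CDR3 on TRBV16 had 3 forms of 1 cell each in 5xFAD library 1, differing only in the third base of a codon. Forms 2 and 3 had the same alpha, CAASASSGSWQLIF on TRAV14N-3 and TRAJ22, identical in its nucleotides, and each also had a second alpha of its own. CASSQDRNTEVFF had 2 forms of 2 cells in 5xFAD library 2 on TRBV5 and TRBJ1-1, with alphas of TRAV6-6 and TRAJ34 that differed by 1 residue and 3 bases. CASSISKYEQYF was found once in 5xFAD library 1 and once in 5xFAD;Cxcr6-/- library 2, with alphas of TRAV6-7-DV9 and TRAJ53 in both that also differed by 1 residue and 3 bases. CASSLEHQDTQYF was found once in each 5xFAD library, 1 base apart, each time with 2 UMIs and with the same 45-base alpha of TRAV16N and TRAJ22. These, like the 15-residue CDR3, were chosen for display after their alphas were seen.

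TRBV16 CDR3 form 1: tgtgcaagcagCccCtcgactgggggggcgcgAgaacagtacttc
TRBV16 CDR3 form 2: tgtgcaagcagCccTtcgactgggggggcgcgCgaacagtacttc
TRBV16 CDR3 form 3: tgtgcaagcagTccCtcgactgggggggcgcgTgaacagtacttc
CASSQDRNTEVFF beta form 1: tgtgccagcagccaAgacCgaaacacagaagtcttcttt
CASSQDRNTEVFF beta form 2: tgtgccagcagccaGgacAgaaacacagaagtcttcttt
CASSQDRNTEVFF alpha of form 1: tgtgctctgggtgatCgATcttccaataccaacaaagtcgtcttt
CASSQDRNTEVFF alpha of form 2: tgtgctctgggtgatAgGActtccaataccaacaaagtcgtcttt
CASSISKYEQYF beta form 1: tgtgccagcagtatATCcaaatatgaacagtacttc
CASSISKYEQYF beta form 2: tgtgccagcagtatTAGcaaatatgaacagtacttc
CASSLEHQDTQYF beta form 1: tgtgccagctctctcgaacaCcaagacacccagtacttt
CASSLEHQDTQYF beta form 2: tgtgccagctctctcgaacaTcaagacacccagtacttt

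Most convergent CDR3s were small. Of the 70, 45 had 2 cells, the fewest the rule allows, 14 had 3, and 5 had 9 or more: 9, 9, 13, 22 and 25. A form was called expanded when 2 or more cells of 1 library carried it. In the 5xFAD libraries 7 of 38 (18.4%) and 13 of 49 (26.5%) convergent forms were expanded, against 129 of 942 (13.7%) and 226 of 1183 (19.1%) single-form ones. In the 5xFAD;Cxcr6-/- libraries it was 1 of 21 (4.76%) and 3 of 41 (7.32%), against 61 of 486 (12.6%) and 101 of 912 (11.1%). The convergent minus single-form differences were 4.73 and 7.43 percentage points for 5xFAD, against -7.79 and -3.76 points for 5xFAD;Cxcr6-/-. An exact two-sided permutation test of this difference between genotypes gave p = 0.333, the smallest possible with 2 libraries against 2. Over the 4 libraries the mean difference was 0.15 points (SD 7.12, n = 4, exact sign-flip permutation test, p = 1). The largest convergent forms had 19, 8, 3 and 24 cells and the largest single-form ones 254, 93, 19 and 31.

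Of the 70 convergent CDR3s, 24 were found in 1 library, 44 in 2, 2 in 3 and 0 in all 4. In 43 the forms lay only in different libraries, so the pooling itself made them members, and 27 had 2 or more forms within 1 library. By genotype, 28 were found in both, 27 only in 5xFAD and 15 only in 5xFAD;Cxcr6-/-. Among single-form CDR3s of 2 or more cells, 7 of 524 were found in 2 libraries. The rule fixes most of this contrast, because a second library can bring a second form, and it is given without a test.

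To measure recurrence with a library that the choice did not use, convergence was defined in 3 libraries and the CDR3s were looked for in the fourth. With 5xFAD library 1 held out, 3 of 44 convergent CDR3s (6.82%) and 24 of 2588 single-form ones (0.927%) were found in it. With 5xFAD library 2 held out it was 1 of 33 (3.03%) and 31 of 2358 (1.31%). For 5xFAD;Cxcr6-/- library 1 it was 2 of 52 (3.85%) and 19 of 3040 (0.625%), and for 5xFAD;Cxcr6-/- library 2 it was 3 of 42 (7.14%) and 25 of 2621 (0.954%). The share was higher for convergent CDR3s in 4 of 4 libraries, by a mean of 4.25 percentage points (SD 2.16, n = 4, exact sign-flip permutation test, p = 0.125, the smallest possible). Each convergent value rests on 1 to 3 CDR3s, and the 4 values share libraries with each other. Against single-form CDR3s of 2 or more cells, of which 6 of 397, 0 of 295, 5 of 466 and 3 of 421 were found, the mean difference was 4.39 points.

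Neighbours that differ by 1 residue on the same V and J were found for 36 of 70 convergent CDR3s (51.4%) and for 342 of 3505 single-form ones (9.76%). A CDR3 seen with several V segments has more chances of a neighbour. Among CDR3s seen with 1 pair of V and J, 9 of 24 convergent (37.5%) and 334 of 3490 single-form ones (9.57%) had a neighbour. Within that set the counts were 2 of 3 and 65 of 381 at 12 residues, but 1 of 8 (12.5%) and 127 of 1066 (11.9%) at 14 residues. The sets are chosen lists, so the difference is given without a test.

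The share of convergent cells did not separate the genotypes. It was 4.40% (76 of 1727 cells, 95% exact Clopper-Pearson interval 3.48 to 5.48%) and 3.19% (70 of 2192, 2.50 to 4.02%) in 5xFAD, then 3.48% (23 of 661, 2.22 to 5.18%) and 5.53% (68 of 1230, 4.32 to 6.96%) in the 5xFAD;Cxcr6-/- libraries. The means were 3.80% ± 0.854 and 4.50% ± 1.45 (SD, n = 2), a difference of 0.707 percentage points (exact two-sided permutation test, p = 0.667), and the groups overlapped. Counting each CDR3 once per library, 5xFAD stood at 2.99% and 3.13% and 5xFAD;Cxcr6-/- at 3.97% and 3.30%. They did not overlap, and the difference of 0.576 points had p = 0.333 in the exact permutation test, the smallest possible with 2 against 2. Thinned to 661 cells per library, the CDR3 shares overlapped (2.15% and 1.91% for 5xFAD, 2.26% and 2.10% for 5xFAD;Cxcr6-/-) with a difference of 0.155 points (exact permutation test, p = 0.667), and without 5xFAD;Cxcr6-/- library 1 the unthinned difference was 0.000289 points. Intervals cover counting error only.

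**Figure D5:**
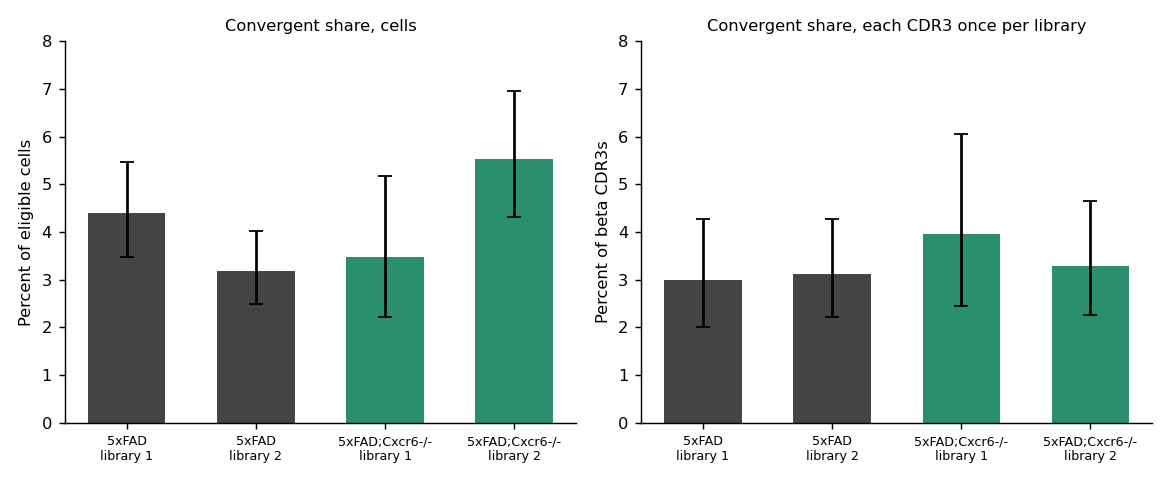
Convergent share of eligible cells (left) and of beta CDR3s counted once per library (right), in percent, for the 2 libraries of each genotype. Bars are library values and whiskers 95% exact binomial intervals; cell shares run from 3.19% to 5.53% and the genotypes overlap, while CDR3 shares run from 2.99% to 3.97%.

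Forms were counted over the 4 libraries pooled, and fewer convergent CDR3s were found when fewer cells were pooled. With every library thinned to 661 cells, a mean of 23.3 convergent CDR3s remained over 200 draws, with cell shares of 3.25% and 1.79% (5xFAD) and of 2.17% and 3.11% (5xFAD;Cxcr6-/-). Forms counted within each library alone gave 7 and 11 convergent CDR3s for 5xFAD, 1 and 9 for 5xFAD;Cxcr6-/-, and the genotype difference in cells then turned to -0.646 points. Single large forms also weigh on the cell shares: without the largest convergent form of each library, an alternative chosen after seeing the data, they were 3.34%, 2.84%, 3.04% and 3.65%. The median TRB UMI count of convergent cells was 7.5, 11, 11 and 10 in the 4 libraries against 10, 8, 10 and 10 in single-form cells.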

How the data were processed

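Each deposited table gives, for every assembled receptor contig, its counts of reads and UMIs without scaling, per the file headers. The submitters' processing notes name Cell Ranger 6.0 and the build mm10, and the receptor reference is not given in the sources used here. All contigs were taken as the authors called them. The members and lists were chosen with earlier results of these data known. Forms were counted over the 5810 eligible cells. Germline V, D and J ends came from GENCODE vM21 (GRCm38), and TRBV10, whose germline there did not match its reads (229 cells, 12 of them convergent), was left out of V and J matching. TRBV10 is annotated there as a V pseudogene, so calls under that name are uncertain.

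Libraries were the replicates, though a convergent CDR3 found in several of them enters each, so their values are not independent. Genotypes were compared with exact two-sided permutation tests, and classes within libraries with exact two-sided sign-flip tests. Segment counts (each pair of CDR3 and segment once per library, at least 10 counts in all) were fitted with edgeR 4.0.16 (R 4.3.3) quasi-likelihood with the library as block and chain totals (pairs of CDR3 and V segment) as offsets, Benjamini-Hochberg over all segments, threshold 0.05. DESeq2 1.42.0 was an alternative. Cells with 2 or more TRB chains (286), which can be doublets, were left out.

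CDR3s were named by 3 or more forms, 3 or more libraries or the 5 highest cell numbers. Named segments were those called, the 5 TRBV, 3 TRBJ, 3 TRAV and 2 TRAJ most used, and the 3 of each direction with the smallest p. The code was tested on simulated data: 500 of 500 junctions and all form counts of 340 CDR3s (0 wrong) came back as made, and the segment test is quoted with its result.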

Additional observations from a re-analysis of the deposited data

Results flagged for a closer look

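The share of expanded forms, convergent minus single-form, had opposite directions in the 2 genotypes: both 5xFAD libraries were above 0 (mean 6.08 percentage points, n = 2) and both 5xFAD;Cxcr6-/- libraries below 0 (mean -5.77, n = 2). The difference between genotypes was -11.9 points, with p = 0.333 in the exact two-sided permutation test, the smallest that 2 libraries against 2 allow. The convergent values rest on 7, 13, 1 and 3 expanded forms in the 4 libraries. The share of cells without an alpha chain, convergent minus single-form, was also opposite: both 5xFAD libraries were below 0 (mean -7.88 points, n = 2) and both 5xFAD;Cxcr6-/- libraries above 0 (mean 2.70, n = 2), a difference of 10.6 points (exact two-sided permutation test, p = 0.333, again the smallest possible).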

How the results depend on the processing

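CDR3 length and the bases between V and J kept their negative direction under all of the 14 and 16 alternatives run, from -1.26 to -0.34 residues and from -2.13 to -0.69 bases, and no exact permutation p went below the threshold, which 4 libraries do not allow. The genotype difference in convergent cells (0.707 points) was -0.814 when forms had to share V and J, -1.38 with cells that had an alpha chain and -0.646 with forms counted within each library. Leaving out 1 library in turn gave -0.687 to 1.98, negative without 5xFAD library 2 or 5xFAD;Cxcr6-/- library 2. The difference in CDR3s (0.576 points) was -0.270 with cells that had an alpha chain and -0.235 within each library, and 0.000289 to 0.750 with 1 library left out. A replicate block gave the same 0.707 and 0.576 points (exact sign-flip permutation test, p = 1 and p = 0.5, the latter the smallest for 2 pairs). Deviations in segment use of same-numbered libraries correlated at -0.00952 across 165 segments. This covers segment use only, so it cannot show whether the numbers pair the libraries.

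The difference in expanded forms (0.152 points) was -0.173 with forms over all productive contigs, -2.38 with cells that had an alpha chain, -0.769 with 3 or more forms, -1.96 when clones needed a shared alpha and -1.67 to 3.23 with 1 library left out, negative without 5xFAD library 1. The held-out difference (4.25 points) was -1.02 with 3 or more forms, where leaving out a library takes away forms so that few CDR3s could qualify and be found, and 1.86 to 7.96 with 1 library left out: 1.86 without 5xFAD;Cxcr6-/- library 2, 2.30 without 5xFAD;Cxcr6-/- library 1 and 7.96 without 5xFAD library 2. The cause of the other changes was not tested.

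In place of 1 segment, 6 were called with TMM scaling (edgeR, all lower in convergent CDR3s). They were TRBV12-2+TRBV13-2, TRBV1 at -3.67, TRBV2 at -7.09, TRBV13-3 at -1.59, TRBJ1-4 at -2.94 and TRBJ2-1 at -1.81. Counts were 0 with DESeq2, with forms over all contigs, 2 or more differing bases, shared V and J, an alpha chain required, 3 or more forms, each cell counted, or single-form CDR3s of 2 or more cells, and 0 to 0 with 1 library left out. The log2 fold of TRBV12-2+TRBV13-2 stayed negative in all 19 alternatives (-8.48 to -1.63). Signs turned with 3 or more forms for TRAJ23 (-7.28), TRAV3D-3 (-6.59), TRAV6-7-DV9 (-6.26), TRBJ2-5 (-8.67) and TRBV3 (-0.36), and with shared V and J for TRBJ1-1 (0.75), TRBJ2-5 (-0.20), TRBV12-2 (-0.021) and TRBV29 (-0.20). With TMM scaling they turned for TRAJ26 (-0.25), TRBJ2-5 (-0.63), TRBJ2-7 (-0.60), TRBV12-2 (-0.0092) and TRBV29 (-0.28). With each segment type relative to its own total, added after seeing the data, 1 segment was called and TRBJ1-1 turned to 0.023. TRBJ2-5 was -0.052 with an alpha chain required and TRBJ2-7 -0.031 against single-form CDR3s of 2 or more cells. With 3 or more forms most segments are at 0 in the convergent class, so those folds depend on the prior count and are no bound.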
